A study of Rattus norvegicus with 90 samples.

Results

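The 300 genomic intervals described here were selected on measured values: they had the largest rise in rat liver 8 h after the high dose of thioacetamide. Besides 40071 Ensembl transcripts, the deposited tables list 25095 intervals, each named by chromosome, start, and end. An interval entered the selection when it reached 0.5 CPM (counts-per-million, estimated counts scaled to the sum of transcript counts of the same library) in at least 4 of the 5 high-dose liver samples at 8 h, and 5686 did. The 300 with the highest log2 ratio of mean CPM in the high-dose over the vehicle group, with 0.5 CPM added to each mean, are the members. They are 5.28% of the intervals that passed the level filter.

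The rats were male Sprague-Dawley rats, 10 weeks old, with a jugular catheter, and each received 1 intraperitoneal injection. The vehicle group received saline at 3 ml/kg, the low-dose group 25 mg/kg of thioacetamide, and the high-dose group 100 mg/kg. Liver, kidney, and heart were taken at 8 or 24 h, which gave 18 groups of 5 samples. Food was withheld over the 8 h before the organs were collected. Liver, kidney, and heart came from the same rats, but the labels do not say which samples share a rat. Kidney and heart were powdered whole before RNA was isolated and liver was not, and poly-A RNA was sequenced.

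Thioacetamide is a hepatotoxicant that is harmless until it is oxidised to reactive metabolites, chiefly by cytochrome P450 enzymes in hepatocytes around the central vein. These metabolites bind to proteins and kill the cells, and inflammation and regeneration follow. RNA that maps to the genome outside annotated transcripts can come from unannotated genes, from extensions of known genes, or from unspliced RNA. The tables do not tell which of these an interval holds, and its name carries no strand. How the intervals were chosen for the reference is not given in the sources used here. The positions are those of the rat build Rnor_6.0. No annotation of that build was used here, so each interval is called by its position, no gene is named for it, and the tissue labels were not checked against marker genes. In bulk tissue, fewer cells of a type and less RNA per cell cannot be told apart.

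Liver libraries MS-1 and MS-9 carry different labels but almost equal counts. MS-1, labelled vehicle at 24 h, and MS-9, labelled low dose at 8 h, differed by no more than 1 count in all 5821 intervals with at least 10 counts and in all 300 members. The median member CPM was 2.46 in both, against 0.378 to 0.619 in the other 4 vehicle livers at 24 h and 1.35 to 2.09 in the other 4 low-dose livers at 8 h. Both libraries were left out of the liver comparisons that follow, and the values with them are given beside the counts. Total counts ranged from 16332764 to 36303248 per library, with a median of 24842179. Between 4.08% and 28.9% of the counts in a library fell on intervals. In the liver at 8 h, the libraries with the highest interval share of the vehicle group (MS-16, 23.6%), of the low-dose group (MS-15, 26.4%), and of the high-dose group (MS-14, 28.9%) also had the highest median member CPM of their group once MS-9 was left out. In the liver at 24 h this held for the vehicle group only (MS-21, 24.96%), once MS-1 was left out. At the high dose, MS-91 had the highest share (14.8%) and the lowest median member CPM (1.615). At the low dose, MS-5 had the lowest share (5.10%) and the highest median member CPM (1.197).

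**Figure D1:**
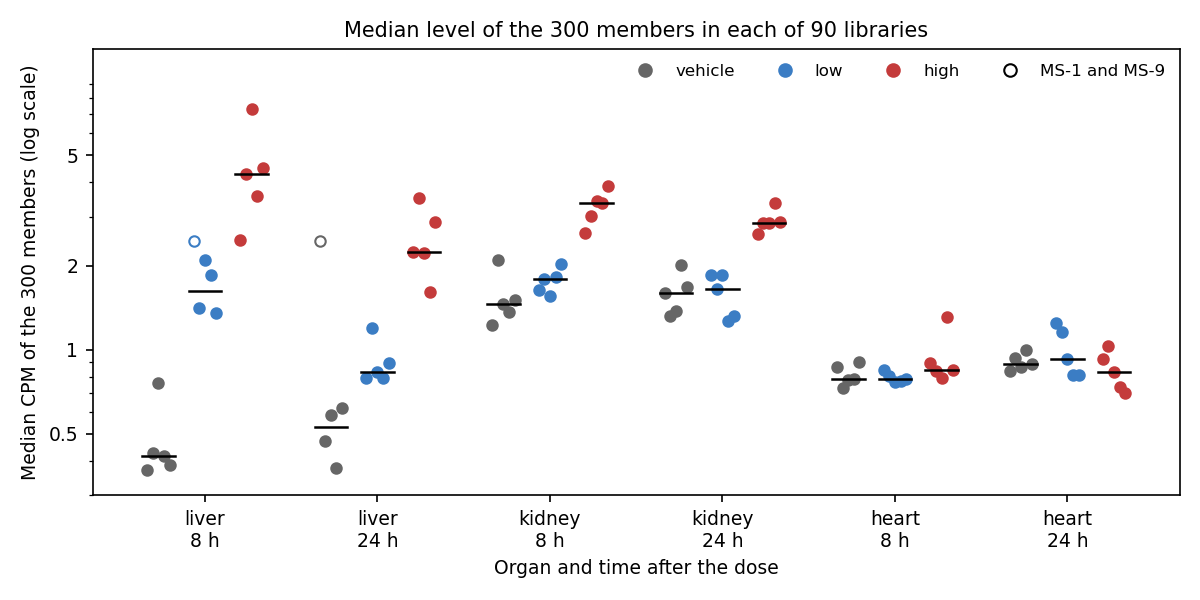
Median CPM of the 300 members (log scale) in each of 90 libraries, by organ, time, and dose. Points are libraries, open points are the pair with nearly the same counts, and black lines are the group medians without that pair. In the liver at 8 h the samples lay between 0.370 and 0.758 CPM with vehicle and between 2.48 and 7.31 CPM at the high dose, values that chose the members.

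In the liver at 8 h, the contrast that chose the members, the median rise was 2.03 on the log2 scale, which is 4.09-fold, and the range was 1.65 to 6.04. Over all 5686 intervals that passed the level filter the median was 0.28. For 286 of the 300 members every high-dose sample lay above every vehicle sample, against 22.1% of the intervals that passed the filter. These values describe the selection and are no result. The last 3 members inside the limit had log2 ratios of 1.66, 1.66, and 1.65, and the first 3 outside had 1.65, 1.65, and 1.65.

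The member with the largest rise was chr13:109776203-109796202, an interval of 20000 bases. Its CPM in the 5 vehicle livers at 8 h was 0.0437, 0.191, 0.201, 0.253, and 0.372. The 4 low-dose livers had 3.92, 7.52, 9.74, and 10.7 CPM. The 5 high-dose livers had 19.9, 21.3, 43.8, 44.0, and 102.6 CPM. The 3 groups did not overlap, and the log2 ratio of the high dose was 6.04. The highest value, from MS-14, was over the other 4 by a wide margin.

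The second was chr9:42885357-42898932, of 13576 bases. Its CPM was 0.170, 0.292, 0.442, 0.527, and 1.21 in the vehicle livers and 26.8, 33.6, 59.4, 67.9, and 114.1 in the high-dose livers, and the low-dose livers lay between, at 6.70 to 12.9. The third was chr3:145697131-145717130, of 20000 bases, with 0.402 to 1.90 CPM in the vehicle livers and 22.1, 24.3, 27.01, 33.9, and 139.7 CPM in the high-dose livers. Here the low-dose livers, at 10.3, 13.2, 24.4, and 34.6 CPM, overlapped with the high-dose group. The highest value of chr3:145697131-145717130 came from MS-27, and without it the high-dose livers spanned 22.1 to 33.9 CPM.

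A narrower spread was seen for chr1:215027825-215029928, an interval of 2104 bases. Its 5 vehicle livers had 0.439, 0.441, 0.465, 0.480, and 0.521 CPM. Its low-dose livers had 7.48, 7.51, 7.54, and 7.57 CPM, and its high-dose livers had 20.7, 26.04, 26.7, 28.3, and 28.8 CPM. The 3 groups were far apart compared with the spread within each. Among the 12 members with the largest rise, the others were chr6:128084665-128092972, chr4:85178357-85186144, chr1:140594246-140601290, chr10:104564981-104573163, chr5:48486413-48500971, chr10:73887171-73901710, chr4:159630584-159634653, and chr6:127592418-127609743, with log2 ratios from 4.01 to 5.06.

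**Figure D2:**
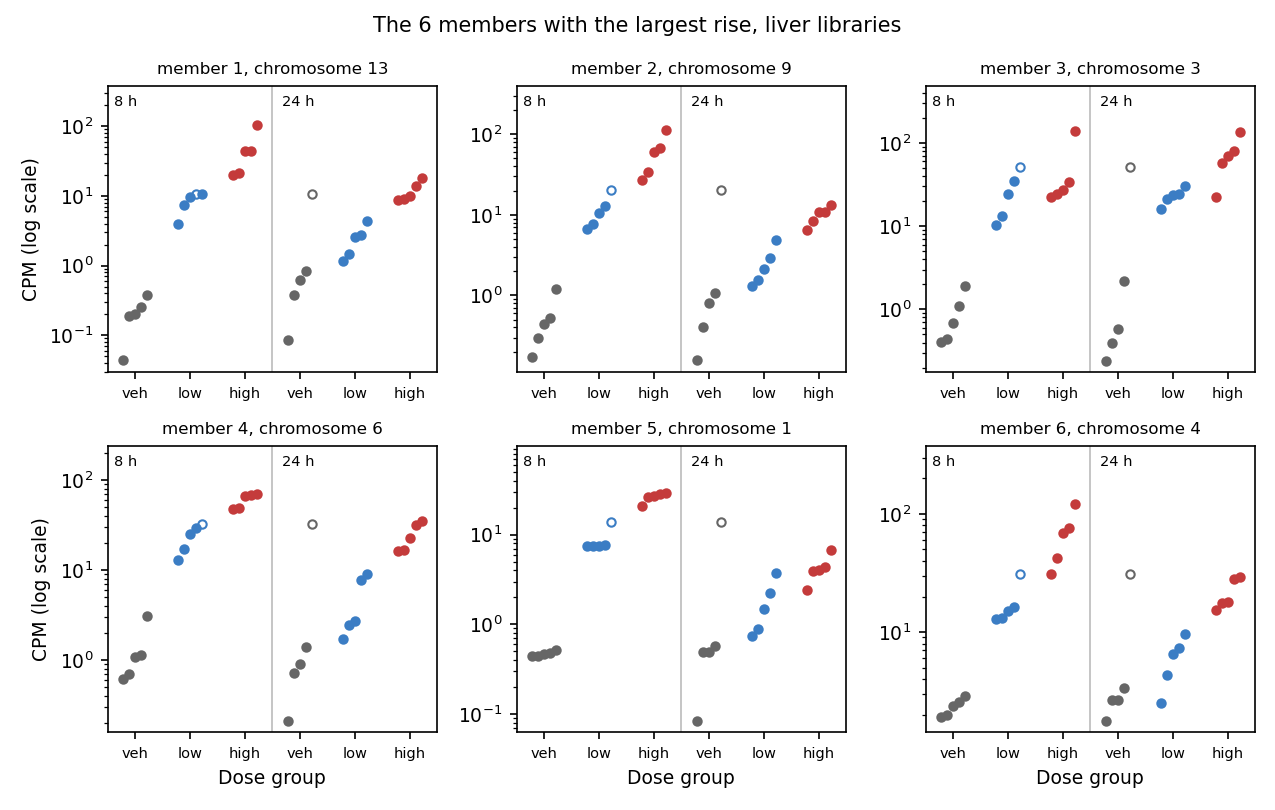
CPM (log scale) of the 6 members with the largest rise in the 30 liver libraries, by dose group (veh is vehicle) and time. Points are libraries, placed in order of level within a group, and open points are MS-1 and MS-9. In all 6 panels the high-dose samples of both times lay above the vehicle samples, open points aside.

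By level, the members with the highest mean CPM in the high-dose livers at 8 h were chr6:128081390-128083532, chr10:73887171-73901710, and chr1:111588065-111608064. Their means were 482.5 ± 211.0 (SD, n = 5), 119.3 ± 44.9 (SD, n = 5), and 117.0 ± 24.3 (SD, n = 5). Per kb of effective length these are 242.3, 8.29, and 5.90 CPM. For chr6:128081390-128083532 the vehicle livers were not uniformly low. They had 28.3, 28.9, 65.7, 165.9, and 251.6 CPM, and the high-dose livers had 247.4, 310.9, 481.8, 614.2, and 758.3 CPM, so that the groups overlapped. The highest vehicle value came from MS-16 and the lowest high-dose value from MS-14, the libraries with the highest interval share of their groups.

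At the low dose at 8 h, the mean CPM lay between the vehicle and the high-dose mean for 298 of 300 members. Both of these outer groups chose the members, so that a mean between them is largely fixed by the selection. For 202 of 300 (67.3%) every one of the 4 low-dose samples lay above every vehicle sample, against 18.9% of the intervals that passed the filter. With MS-9 the count was 201. The median log2 ratio of the low dose was 1.04, and the median of the ratio between the low-dose and the high-dose log2 value was 0.503. These comparisons, and the ratio of the doses, use samples that chose the members and are given without a test.

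The 3 members with the largest rise at the low dose relative to the high dose were chr5:167093094-167109191, chr1:278091805-278111804, and chr14:17235213-17246861. The first and second were also the 2 members whose low-dose mean was at or above the high-dose mean. For chr5:167093094-167109191 the low-dose livers had 5.57, 5.83, 8.85, and 9.71 CPM and the high-dose livers 4.94, 5.15, 5.51, 6.34, and 7.13 CPM, so that the doses overlapped, while the vehicle livers had 0.322 to 1.71 CPM. For chr1:278091805-278111804 the high-dose value rested on 1 library, with 9.52 CPM against 1.22 to 2.18 CPM in the other 4.

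A test of the low dose that avoids the selecting samples was made against the 24 h vehicle livers, 4 samples against 4, which differ from it in time as well as in dose. Of 248 members tested, 81 rose and none fell, at an adjusted p of no more than 0.01 and an absolute log2 fold change of at least 0.866 in edgeR's quasi-likelihood test. Among all intervals tested, 2.20% rose and 3.89% fell. The median log2 fold change of the tested members was 1.25, and that of all intervals tested was -0.03. The fold changes of all tests are after TMM scaling (a factor per library, set on the transcripts, that offsets differences in RNA composition), and the printed CPM is not. This scaling lowered the log2 fold change by 0.35 here, the difference between the groups in the mean log2 factor. Without the factor 130 members rose and none fell, against 5.30% and 1.88% of all intervals. For all 81 members the low-dose samples lay above the vehicle samples without overlap, which is largely fixed by the call. No such share over all intervals is given here. The largest rises were those of chr3:16289787-16309786 (log2 4.41 ± 0.67 SE, adjusted p = 0.00167), chr6:128084665-128092972 (4.33 ± 0.45 SE, adjusted p = 0.000359), and chr3:145697131-145717130 (4.18 ± 0.63 SE, adjusted p = 0.00161). The vehicle livers of the 2 times could be compared directly: for 1 member every 24 h vehicle sample lay above every 8 h vehicle sample, and for 1 every sample lay below, against 0.985% and 0.598% of the intervals that passed the filter. The median log2 ratio of CPM was 0.05. This comparison uses the 8 h vehicle samples, which chose the members, and is given without a test. Without MS-20, MS-15, or MS-18 the count of rises was 46, 48, or 52. With MS-1 and MS-9 under their labels, which puts nearly the same counts in both groups, edgeR called 0 members, and 67 had an unadjusted p under 0.05.

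At 24 h after the high dose, in liver samples that took no part in the selection, 130 of 277 members tested rose and none fell. Among all 8180 intervals tested, 5.61% rose and 15.2% fell. The median log2 fold change was 1.33 for the members, a 2.51-fold rise, and -0.29 for all intervals. The split of all intervals depended on the scaling. The TMM factor was 0.662 to 0.796 in the vehicle and 1.14 to 1.42 in the high-dose libraries, which lowered the log2 fold change by 0.83. Without the factor 230 members rose and none fell, against 24% and 5.16% of all intervals, and the medians were 2.16 and 0.57. With TMM scaling from the intervals alone the medians were 1.72 and 0.11, and 189 members rose, against 11.1% and 9.54% (fell) of all intervals. By CPM, every high-dose sample lay above every vehicle sample for 242 of 300 members (80.7%) and below for none, against 37% and 6.44% of the intervals that passed the filter. All 130 rises were without overlap between the 5 high-dose and the 4 vehicle samples, and their log2 fold changes ranged from 0.89 to 6.11. With MS-1 kept as a vehicle sample, 25 members rose, 23 of them among the 130, and 83 had an unadjusted p under 0.05. Among the 12 members with the largest rise at 8 h, 11 passed the test at 24 h. The exception was chr6:127592418-127609743. Its CPM was 92.1, 102.5, 105.5, 113.0, and 124.9 in the high-dose livers at 8 h and 10.3, 10.9, 11.1, 11.7, and 12.6 at 24 h. The 24 h vehicle livers had 3.54, 3.86, 6.43, and 6.97 CPM, so that the CPM of the 24 h groups did not overlap. After TMM scaling the log2 fold change was 0.30 ± 0.22 SE and did not pass (adjusted p = 0.303), and without the factor it was 1.12 ± 0.22 SE and passed (adjusted p = 0.00102).

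The largest rise at 24 h was that of chr4:159630584-159634653, of 4070 bases. The vehicle livers had 0.106, 0.137, 0.146, and 0.210 CPM, and the high-dose livers had 9.60, 9.77, 17.9, 27.4, and 29.7 CPM. The log2 fold change was 6.11 ± 0.52 SE (adjusted p = 1.3e-05). At 8 h its high-dose livers had 2.29, 8.17, 10.02, 15.9, and 24.1 CPM. The next were chr16:64478387-64498386, with 0.0501 to 0.266 CPM in the vehicle livers and 2.78, 8.43, 19.01, 19.05, and 22.9 CPM in the high-dose livers (log2 5.95 ± 0.73 SE, adjusted p = 0.000102), and chr1:220837005-220839617, with 0 to 0.137 CPM and 3.08, 4.21, 5.75, 8.24, and 9.16 CPM (log2 5.53 ± 0.53 SE, adjusted p = 2.6e-05). For all 3, the vehicle and high-dose samples were well separated, although the vehicle values were close to 0.

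In mean CPM after the high dose, most members stood lower at 24 h than at 8 h. The mean CPM of the high-dose group was below its 8 h mean for 264 of 300 members and at or above it for 36, and it was above the 24 h vehicle mean for 299. After TMM scaling, the log2 fold change over the 24 h vehicle was above 0 for 261 of the 277 members tested. The members were chosen for high values in the 8 h high-dose samples, so that a lower mean in other samples is partly fixed by the selection. No such count over the other intervals is given here. Whether the rise itself differed between the times was not tested, since the 8 h samples chose the members. One of the 36 was chr5:167093094-167109191, with 12.5, 13.5, 19.2, 21.2, and 21.3 CPM in the high-dose livers at 24 h. Its rise over the 4 vehicle livers was 3.80 ± 0.23 SE on the log2 scale (adjusted p = 3.43e-06).

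At 24 h after the low dose, 15 of 223 members rose and 1 fell, against 0.802% and 6.53% of all intervals tested. The median was 0.26 for the members and -0.35 for all intervals. The TMM factor lowered the log2 fold change by 0.51 here, and without it 51 members rose and 1 fell, against 4.37% and 2.14% of all intervals, with medians of 0.79 and 0.15. With TMM from the intervals alone 30 rose, against 2.37% and 2.52% (fell) of all intervals. By CPM, every low-dose sample lay above every vehicle sample for 86 members (28.7%) and below for none, against 14.6% and 3.55% of the intervals that passed the filter. The largest rises were those of chr3:16289787-16309786 (log2 4.32 ± 0.76 SE, adjusted p = 0.00253), chr3:145697131-145717130 (4.18 ± 0.49 SE, adjusted p = 0.000332), and chr16:64478387-64498386 (3.78 ± 0.68 SE, adjusted p = 0.0028). For chr3:145697131-145717130 the low-dose livers had 15.9, 21.1, 23.3, 24.3, and 30.4 CPM, against 0.244, 0.400, 0.578, and 2.16 CPM in the vehicle livers. The 1 member that fell, chr14:46538076-46558075, is named because it was the single one. It had 1.16 ± 0.315 (SD, n = 4) CPM with vehicle and 0.454 ± 0.183 (SD, n = 5) CPM at the low dose, and the groups overlapped (log2 -1.88 ± 0.36 SE, adjusted p = 0.00377). Without the TMM factor its log2 fold change was -1.36 and passed as well (adjusted p = 0.00883), and with TMM from the intervals alone no member fell. Without MS-20 the count of rises was 8, and with MS-1 kept edgeR called 0 rises, with 4 members higher at an unadjusted p under 0.05.

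The doses at 24 h were compared without the vehicle group, 5 samples against 5, and neither group holds MS-1. Of 274 members tested, 89 were higher at the high dose and none lower, against 2.64% and 2.26% of all intervals tested. The median log2 difference was 0.97, against 0.07 for all intervals. Without the TMM factor, which lowered it by 0.30, 146 were higher and none lower, against 7.77% and 1.23% of all intervals. For 84 of the 89 the samples of the doses did not overlap. Such separation is largely fixed by the call, and no share over all intervals is given here. The largest difference was again that of chr4:159630584-159634653, with 0.422, 0.503, 0.523, 1.44, and 2.58 CPM at the low dose (log2 3.84 ± 0.53 SE, adjusted p = 0.00137). It was followed by chr13:50889373-50909372 (3.13 ± 0.50 SE, adjusted p = 0.00204) and chr18:27661930-27672576 (3.00 ± 0.46 SE, adjusted p = 0.00188). For chr18:27661930-27672576 the low-dose livers, at 0.193 to 0.513 CPM, overlapped with the vehicle livers, at 0 to 0.417 CPM, and the high-dose livers had 0.624, 2.27, 3.08, 3.35, and 4.94 CPM. Without MS-26, MS-2, MS-7, MS-6, or MS-22 the count was 47, 48, 48, 50, or 50.

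**Figure D3:**
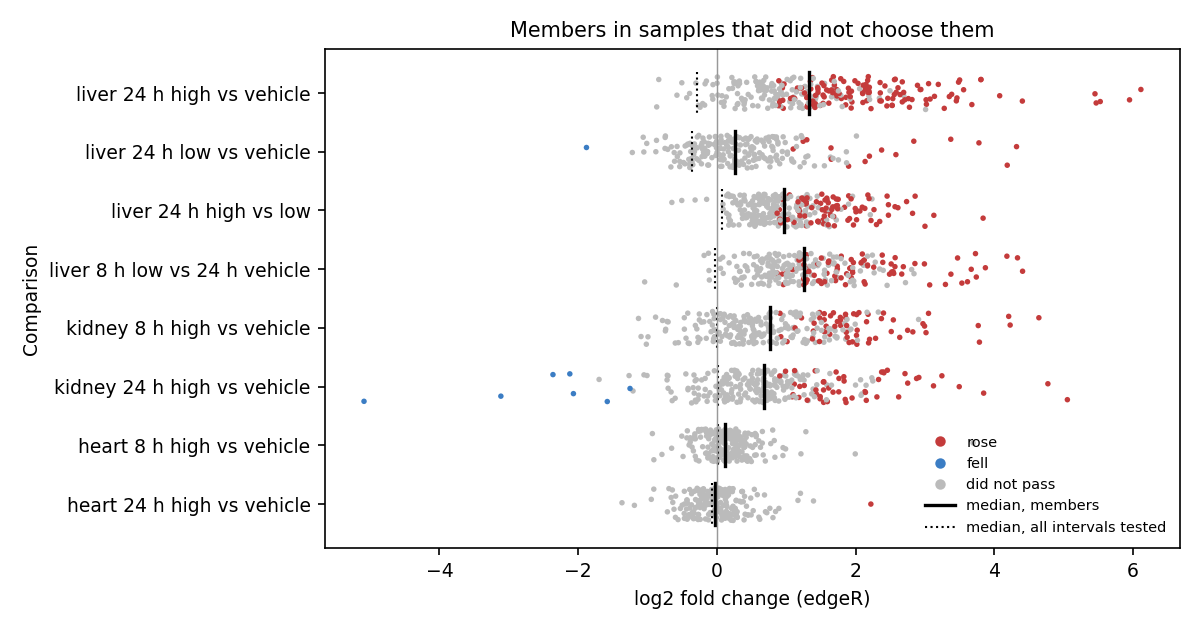
Log2 fold change of each member tested in 8 comparisons of samples that the selection did not use. Points are members, coloured by the outcome of edgeR's test, solid lines are medians of the members, and dotted lines are medians of all intervals tested. Values are after TMM scaling, which lowered those of the 4 liver comparisons by 0.30 to 0.83. The members' median for the high dose was 1.33 in the 24 h liver, 0.76 and 0.67 in the kidney at 8 and 24 h, and 0.12 and -0.02 in the heart.

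By level, most members were highest outside the liver, as were most intervals that passed the filter. In the vehicle groups at 24 h, 218 of 300 members (72.7%) had their highest mean CPM in the kidney, 60 in the heart, and 22 in the liver. Among the intervals that passed the filter, 63.7% were highest in the kidney and 15.3% in the liver. The median member had 0.528 CPM in the liver, 1.56 CPM in the kidney, and 0.905 CPM in the heart. For the intervals that passed the filter these medians were 1.37, 2.80, and 1.63 CPM, in the same order. The selection favoured low vehicle livers at 8 h, so that a low liver level without treatment is partly fixed by it.

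The high dose was also tested in the kidney. At 8 h, 57 of 262 members tested passed as higher and none as lower. At 24 h, 50 of 267 passed as higher and 7 as lower. Of all intervals tested, 1.06% rose and 1.33% fell at the first time, and 1.18% and 2.05% at the second. Without the TMM factor the members' counts were 58 and 0 at 8 h and 59 and 7 at 24 h, and the shares of all intervals at 24 h were 1.54% and 1.74%. The median log2 fold change was 0.76 at 8 h and 0.67 at 24 h, while that of all intervals at 8 h was -0.0039. For none of these rises did the vehicle and high-dose samples overlap, which is largely fixed by the call. By CPM, every high-dose sample lay above every vehicle sample for 33.7% of the 300 members at 8 h and 39% at 24 h. Of the intervals that passed the filter these shares were 6.67% and 8.09%. Every high-dose sample lay below for 3 and 8 members, against 3.39% and 2.5% of the intervals that passed the filter. In all, 28 members rose at both times, which is 49.1% of the rises at 8 h and 56% of those at 24 h, in kidneys of different rats. Among all intervals, members included, 42 rose at both times, which is 35.9% and 30.7% of the rises at each. Of the 42, 14 were not members, which is 23.3% and 16.1% of the rises among intervals that were not members. Leaving out 1 library moved the count at 8 h to 30 without MS-101, 31 without MS-40 or MS-58, 33 without MS-59, 35 without MS-102 or MS-57, 37 without MS-98, and 36% of the 300 members without MS-100, the vehicle kidney with the highest median member CPM (2.11, against 1.22 to 1.504 in the other 4).

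The largest rise in the kidney at 8 h was that of chr17:43923385-43932384, with 0, 0.0382, 0.0398, 0.0529, and 0.160 CPM in the vehicle kidneys and 1.07, 1.17, 1.62, 1.80, and 1.87 CPM in the high-dose kidneys (log2 4.64 ± 0.49 SE, adjusted p = 0.000235). The vehicle values are close to 0. Next came chr13:109776203-109796202, the member with the largest rise in the liver. Its vehicle kidneys had 0.217, 0.250, 0.403, 0.501, and 0.545 CPM and its high-dose kidneys 3.61, 6.95, 7.04, 8.47, and 9.66 CPM (log2 4.23 ± 0.33 SE, adjusted p = 3.92e-05). At 24 h the high-dose kidneys had 3.71, 3.84, 4.30, 4.59, and 4.69 CPM (log2 3.49 ± 0.28 SE, adjusted p = 2.01e-05). The third was chr3:147633303-147642750 (log2 4.21 ± 0.57 SE, adjusted p = 0.00134), which rose at 24 h as well (log2 3.85 ± 0.61 SE, adjusted p = 0.00164).

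Members differed in when and where they rose. The interval chr3:145697131-145717130 had 0.604, 0.656, 0.715, 0.844, and 1.23 CPM in the high-dose kidneys at 8 h, within the range of the vehicle kidneys (0.471 to 1.06) apart from the highest sample. At 24 h the high-dose kidneys had 2.37, 15.5, 18.8, 19.96, and 30.7 CPM, against 0.323 to 0.848 CPM with vehicle (log2 4.77 ± 0.58 SE, adjusted p = 0.000326). The largest rise in the kidney at 24 h, that of chr1:220837005-220839617, was similar in this respect: 3.37, 5.02, 5.37, 5.89, and 11.6 CPM at 24 h (log2 5.05 ± 0.56 SE, adjusted p = 0.000164), and 0.223 to 1.61 CPM at 8 h. For neither was the change between the times tested.

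The interval chr4:85178357-85186144 had a higher level in the kidney than in the liver. Its vehicle kidneys at 8 h had 15.9, 16.9, 21.6, 24.7, and 26.2 CPM, its low-dose kidneys 52.9, 59.6, 64.95, 69.9, and 79.1 CPM, and its high-dose kidneys 119.2, 146.5, 155.2, 185.0, and 216.9 CPM. The 3 groups did not overlap, and the high dose was 2.97 ± 0.19 SE higher than vehicle on the log2 scale (adjusted p = 7.32e-06). The interval chr1:215027825-215029928 had the same order, with 2.56 to 4.45 CPM in the vehicle, 9.90 to 11.2 in the low-dose, and 12.6 to 28.1 in the high-dose kidneys (high against vehicle, log2 2.63 ± 0.24 SE, adjusted p = 0.000107). At the low dose the kidney groups overlapped for most members. For 17 of 300 (5.67%) every low-dose sample at 8 h lay above every vehicle sample, against 1.74% of the intervals that passed the filter, and for 5 every one lay below, against 1.92%. At 24 h these counts were 4 and 6, against 0.932% and 0.862%. No test was run on the low dose in the kidney.

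By contrast, chr6:128084665-128092972 and chr6:127592418-127609743 were near 0 in the kidney and were not tested there for low counts. The first had at most 0.223 CPM in every high-dose kidney, while its high-dose livers at 8 h had 47.7, 48.7, 67.4, 68.9, and 71.2 CPM. The second had at most 0.789 CPM in every high-dose kidney.

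The 7 members that fell in the kidney at 24 h were 2.62% of those tested, near the 2.05% of all intervals tested that fell. These 7 rose in the liver at 8 h by the selection. The largest fall was that of chr19:52070252-52076609. Its vehicle kidneys had 16.4, 23.3, 26.6, 36.2, and 58.02 CPM and its high-dose kidneys 0.423, 0.862, 1.01, 1.33, and 1.43 CPM (log2 -5.09 ± 0.42 SE, adjusted p = 2.03e-05). At 8 h the high-dose kidneys had 8.11 to 17.5 CPM and the vehicle kidneys 15.2 to 35.4 CPM, a log2 fold change of -0.74 that did not pass (adjusted p = 0.0994). In the liver at 8 h the same interval had 0.284 to 0.538 CPM with vehicle and 1.46 to 4.57 CPM at the high dose. The next falls were those of chr7:129864413-129884412 (log2 -3.12 ± 0.38 SE, adjusted p = 0.000344) and chr7:116563319-116583318 (log2 -2.36 ± 0.48 SE, adjusted p = 0.00758). Their levels in vehicle kidneys at 24 h, 9.39 ± 4.29 (SD, n = 5) and 10.7 ± 6.32 (SD, n = 5) CPM, were higher than the mean of any liver group. One of the 7, chr15:28456702-28476701, rose in the liver at 24 h.

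At 24 h, the high dose in liver and kidney could both be tested for 261 members. Of these, 35 rose in both organs, 83 rose in the liver and did not pass in the kidney, 13 rose in the kidney and did not pass in the liver, and 123 passed in neither. The other 7 fell in the kidney, and 1 of them rose in the liver. The 35 are 26.9% of all 130 members that rose in the liver and 70% of all 50 that rose in the kidney. These totals include members that could not be tested in the other organ. Over all intervals, members included, 58 rose in both organs, 12.6% of the rises in the liver and 42.3% of those in the kidney. Of the 58, 23 were not members, which is 6.99% and 26.4% of the rises among intervals that were not members. The organs come from the same rats, so that the tests are not independent, and the difference between the organs was not tested.

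**Figure D4:**
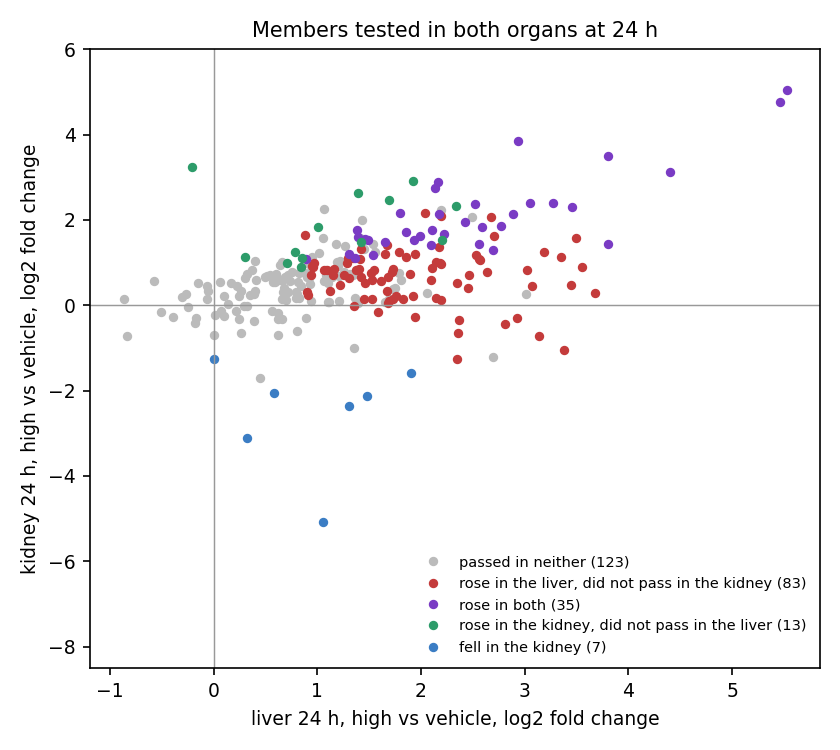
Log2 fold change at 24 h after the high dose over vehicle in the kidney against that in the liver, for the 261 members tested in both. Points are members, coloured by the outcome of the tests, with counts in the legend. The 7 members that fell in the kidney lie below 0 on the vertical axis, and the 35 that rose in both lie above 0 on both axes.

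In the heart after the high dose, few members passed a test. At 8 h, edgeR called 0 of 209 members, 27 had an unadjusted p under 0.05, and DESeq2 called 1, while edgeR called 0.0% of all intervals as risen and 0.0% as fallen. At 24 h, 1 of 208 rose, against 0.139% of all intervals, and none fell, against 0.114%. The median log2 fold change was 0.12 at 8 h and -0.02 at 24 h. The 1 member that rose was chr4:159630584-159634653, the largest rise of the liver at 24 h. Its vehicle hearts had 0.216, 0.313, 0.677, 0.962, and 1.01 CPM and its high-dose hearts 1.95, 2.19, 2.71, 3.20, and 4.44 CPM (log2 2.22 ± 0.39 SE, adjusted p = 0.00833). At 8 h it stood at a log2 fold change of 1.99 ± 0.40 SE, which did not pass (adjusted p = 0.106). Without any 1 of 9 of the 10 heart libraries at 24 h it was not called, and without MS-84 it was 1 of 2 members called. At the low dose, 1 member at 8 h and 3 at 24 h had every sample above the vehicle samples, against 0.475% and 0.756% of the intervals that passed the filter.

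By position, the members were spread over all autosomes. Chromosome 1 held 45, chromosome 5 held 25, chromosome 10 held 24, and chromosome 2 held 22, which are 6.39%, 6.01%, 4.73%, and 6.55% of the intervals on each that passed the filter. Chromosome 20 had the highest share among the autosomes, 16 of 179 (8.94%), and chromosome X the lowest of the numbered chromosomes and X, 1 of 132 (0.758%). The median length of a member was 14549.5 bases, and 36.3% were 20000 bases long, against 40.8% of the intervals that passed the filter.

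With members no more than 100 kb apart joined, 65 of 300 (21.7%) fell into 28 clusters, and 235 stood alone. Joined in the same way, 69.6% of the 5686 intervals that passed the filter and 83% of all intervals fell into clusters. Those sets are denser than the members, so that the shares are not directly comparable. For the 37 neighbouring pairs of members in clusters, the gap was 1082 to 96209 bases, with a median of 12961 bases. Intervals of the reference never overlap. Near a member, the nearest interval that passed the filter was more often a member itself at short range. Where that neighbour lay within 20 kb, 36 of 127 members (28.3%) had a member as neighbour, and its median log2 ratio was 0.96. At 20 to 100 kb it was 10 members (9.17%), with a median of 0.57, and beyond 100 kb it was 5 of 64 (7.81%), with a median of 0.42. For intervals that were not members, the neighbour was a member for 7.04%, 3.91%, and 4.18% at the same distances, and its median log2 ratio was 0.41, 0.31, and 0.21. These values rest on the samples that chose the members and are a description.

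**Figure D5:**
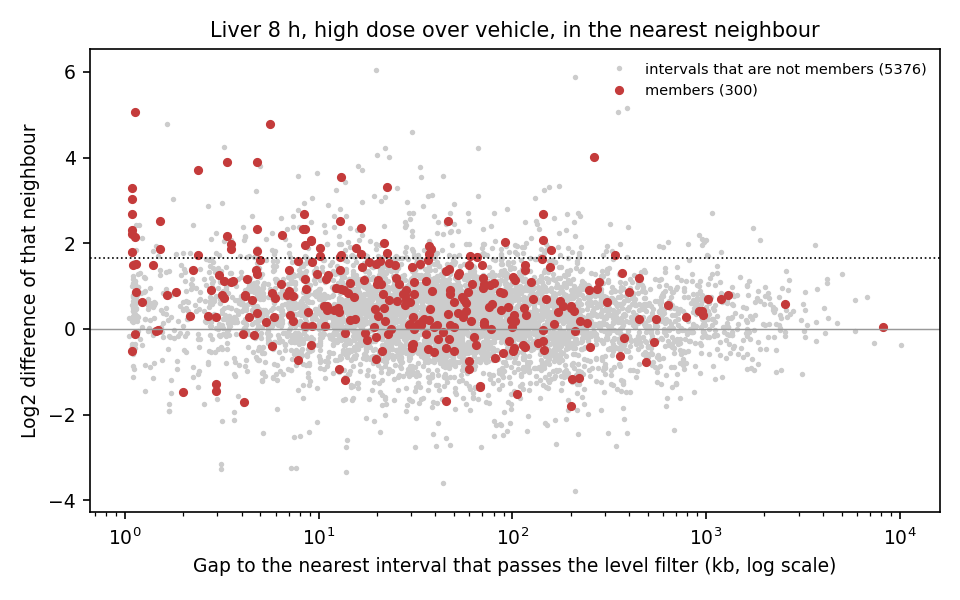
Log2 ratio (liver, 8 h, high dose over vehicle) of the nearest interval that passed the level filter, against the gap to it (kb, log scale), for the 300 members and for the other intervals that passed the filter and had a neighbour on the same chromosome. Points are intervals, and the dotted line is the limit of the selection. Within 20 kb the median of the members' neighbours was 0.96, and that of the other intervals' neighbours 0.41.

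The cluster with the most members was chr20:2707621-2937916, with 5 members over 230296 bases. Their log2 ratios were 1.72 to 2.52, against a median of 2.03 over all members. All 5 were low in level: their mean levels in the high-dose livers at 8 h summed to 8.00 CPM. The highest, chr20:2858706-2877546, had 0, 0, 0.0771, 0.0891, and 0.138 CPM in the vehicle livers and 1.5, 2.09, 2.31, 2.72, and 4.93 CPM in the high-dose livers at 8 h. At 24 h its high-dose livers had 0, 0.149, 0.532, 0.6, and 1.22 CPM, and it was not tested there for low counts. The median correlation (Pearson's r on log2 of CPM with 0.5 added) among these 5 members was 0.81 over the 89 libraries without MS-1, which differ in organ, dose, and depth. Over all 37 neighbouring pairs the median was 0.70, and over all 44850 pairs of members it was 0.56.

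The next clusters were chr2:210783363-210896155, with 4 members over 112793 bases, and chr20:6298714-6363351, with 4 members over 64638 bases. In the first, the 24 h values depended on the scaling. The interval chr2:210809808-210826877 had 14.8, 14.98, 19.2, 19.9, and 28.5 CPM in the high-dose livers at 8 h, and at 24 h it had 3.77, 3.83, 5.67, 5.76, and 8.49 CPM, against 4.61, 4.98, 5.85, and 7.48 CPM with vehicle (log2 -0.87 ± 0.29 SE, adjusted p = 0.0311), so that the groups overlapped in CPM. Without the TMM factor its log2 fold change was -0.06 ± 0.27 SE (adjusted p = 0.851). Its neighbour chr2:210783363-210803362 had 1.04 to 2.96 CPM in the high-dose livers and 0.171 to 0.778 CPM in the vehicle livers at 24 h (log2 1.21 ± 0.53 SE, adjusted p = 0.084). Neither passed the test, but the neighbour did without the factor (log2 2.02 ± 0.53 SE, adjusted p = 0.00624). In the second, chr20:6303398-6315331 rose in the kidney at both times, from 0.103 to 0.578 CPM with vehicle to 2.51, 2.84, 4.31, 4.58, and 5.70 CPM at 8 h (log2 3.78 ± 0.43 SE, adjusted p = 0.000365), and by 2.62 ± 0.50 SE at 24 h (adjusted p = 0.00549).

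The pair on chromosome 6, chr6:128081390-128083532 and chr6:128084665-128092972, lay close together and together had the highest summed level of any cluster, 543.3 CPM in the high-dose livers at 8 h. At 24 h both rose after the high dose, the first from 27.01, 35.99, 53.3, and 66.3 CPM with vehicle to 256.9, 262.2, 380.0, 412.4, and 554.8 CPM (log2 2.20 ± 0.35 SE, adjusted p = 0.00056), the second from 0.211, 0.715, 0.904, and 1.40 CPM to 16.4, 16.98, 22.9, 31.95, and 35.3 CPM (log2 4.08 ± 0.44 SE, adjusted p = 4.72e-05). Their r over the 89 libraries was 0.92. This pair was singled out after its values were seen.

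In all, 110 of the 300 members passed none of the 8 tests, and 15 of these were tested in none of them because their counts were low. The liver tests share groups of samples, and no such count over the other intervals is given here. Members held a share of whole-number counts (within 0.01) like that of the other intervals that passed the filter, 13.1% against 13.9% of the values in the high-dose livers at 8 h.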

How the data were processed

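RNA of 90 samples was sequenced in 75-base pairs, and the authors quantified it with Kallisto 0.42.2 on Rnor_6.0 targets, per the submitters' processing notes. The deposited estimated counts need not be whole and are not normalized. The deposited TPM was not analysed. Members and lists were chosen with earlier results of these data known. Samples were grouped by their labels. By the labels each group was 5 rats, and the liver groups without MS-1 or MS-9 held 4. The p-values measure the spread between rats. Counts were rounded, filtered, and scaled by TMM from the transcripts, and all targets were tested with edgeR 4.0.16 (quasi-likelihood) in R 4.3.3, with Benjamini-Hochberg adjustment over all targets. A call took an adjusted p up to 0.01 and a natural-log fold change of 0.6 or more in size. The SE is the absolute log2 fold change over the square root of F. On simulated counts, 200 of 200 changed targets were recovered in each of 3 comparisons, and 0, 2, and 4 unchanged targets were called. The changed targets were drawn from those with higher counts, with a large fold change and a spread fixed in advance. Their recovery does not tell how many changed members with low counts or a wider spread would be found. Named intervals were, by rule, the 12 largest rises, those at the limit, the 3 highest levels, 3 clusters, and the largest calls. Others, said to be so or single, were chosen after their values were seen. Alternatives were DESeq2 1.42.0, other scalings, no filter, no fold limit, each library left out, MS-1 and MS-9 kept, a term for kidney library numbers above 90, and, chosen after seeing the data, the interval share as covariate and no TMM factor. Printed CPM carries no TMM factor. Gene lists and markers were not used, since no table used here pairs targets with genes. Python 3.11.15, numpy 2.4.6, pandas 2.3.3, and matplotlib 3.10.9 made the tables and plots.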

Additional observations from a re-analysis of the deposited data

Results flagged for a closer look

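Within groups of 5 samples, a single value was called far from the rest when its gap to the next value was over 0.710 of the range. Of 54 groups looked at, the median member CPM in 18 groups and 6 members in 6 liver groups each, 14 held such a value, and chance gives about 1 in 20. MS-1 accounted for 7 of the 14, all in the vehicle livers at 24 h. Its median member CPM was 2.46, against 0.378 to 0.619 in the other 4. Its CPM was 10.5 for chr13:109776203-109796202, 20.4 for chr9:42885357-42898932, 51.5 for chr3:145697131-145717130, 32.5 for chr6:128084665-128092972, 13.97 for chr1:215027825-215029928, and 30.9 for chr4:85178357-85186144, and the other 4 libraries had at most 3.34 for any of these. MS-9, with nearly the same counts, stood apart among the low-dose livers at 8 h for chr1:215027825-215029928 (13.97, against 7.48 to 7.57) and chr4:85178357-85186144 (30.9, against 12.9 to 16.4).

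MS-16 stood apart among the vehicle livers at 8 h by its median member CPM of 0.758, against 0.370 to 0.426, and by 3.12 CPM for chr6:128084665-128092972, against 0.625 to 1.14. MS-27 stood apart among the high-dose livers at 8 h by 139.7 CPM for chr3:145697131-145717130, against 22.1 to 33.9. MS-5 had a median member CPM of 1.197 among the low-dose livers at 24 h, against 0.792 to 0.893, and MS-77 one of 1.32 among the high-dose hearts at 8 h, against 0.791 to 0.896. The interval share of MS-77 was 21.7%, the highest of the hearts, and that of MS-5 was 5.10%, the lowest of its group. The part of the interval share in these values was not tested.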

How the results depend on the processing

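The selection kept 234 to 293 of the 300 members under 5 other ways of computing it, the lowest with a pseudocount of 0.1 CPM, and 265 (without MS-14) to 288 when 1 library was left out. With gaps of at most 20 or 500 kb in place of 100 kb, 39 or 115 members fell into clusters. The shares of the denser set of intervals that passed the level filter were 27.72% and 92.35%. The share of the 300 members called as risen is given for the tests. With MS-1 and MS-9 kept it was 8.33% (43.3% without them) for the high dose in the 24 h liver, and 0.0% for the low dose at 24 h (5% without them, with 4 members higher at an unadjusted p under 0.05) and for the low dose at 8 h against the 24 h vehicle (27% without them, with 67 members at an unadjusted p under 0.05). DESeq2 called 9.33% for the low dose in the 24 h liver, 35.3% and 25.3% (19% and 16.7% by edgeR) in the kidney at 8 and 24 h, and 0.333% and 1.67% (0.0% and 0.333%) in the heart. Of all intervals with counts it called 0.476%, 1.36%, 0.977%, 0.0082%, and 0.123% as risen, in the same order. As fallen, DESeq2 called 2 members in the kidney at 8 h and 9 at 24 h, against 1.21% and 1.62% of these intervals. For the low dose in the 24 h liver it called 1 as fallen, against 2.57%. Without a fold limit, 1.33% rose in the heart at 24 h, against 0.278% of all intervals tested. With a term for library numbers above 90, 50 members rose in the kidney at 8 h and 55 at 24 h. Of all intervals tested, 0.78% and 1.32% rose in these fits. At 8 h the numbers above 90 were MS-100 with vehicle and MS-98, MS-101, and MS-102 at the high dose. For the low dose in the 24 h liver, TMM from the intervals alone gave 10%, and the interval share as covariate, chosen after seeing the data, gave 1.67%. Of all intervals tested, 2.37% and 0.197% rose in these fits. TMM from the intervals alone moved the median of all targets by 0.39 (log2) for both doses in the 24 h liver against vehicle. TMM from all targets moved it by 0.13 for the high and 0.12 for the low dose. Leaving out 1 library gave, in the 24 h liver, 2.67% (without MS-20) to 4.67% for the low dose and 15.7% (without MS-26) to 35% for the high dose against the low. It gave 15.3% (without MS-20) to 25.3% for the low dose at 8 h, 10% (without MS-101) to 36% (without MS-100) and 12% to 17.7% in the kidney at 8 and 24 h, and 0.0% to 0.333% (without MS-68) and 0.0% to 0.667% (without MS-84) in the heart. In the heart fits with no rise, 22 to 31 members at 8 h and 24 to 29 at 24 h had an unadjusted p under 0.05. Without the TMM factor, an alternative chosen after seeing the data, 76.7%, 17%, and 48.7% rose in the 24 h liver for the high dose, the low dose, and the high dose against the low, and 43.3% for the low dose at 8 h against the 24 h vehicle. The cause of these changes was not tested. No paired analysis was possible because each test compares different rats of 1 organ, whose libraries share no number. Low counts limit the values under about 0.5 CPM.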
